A study of Saccharomyces cerevisiae with 26 samples.

Results

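The mitochondrial ribosomal protein family was followed in Saccharomyces cerevisiae through the genes whose array symbol begins with MRPL, MRPS, MRP or RSM and goes directly on to a digit. The symbol rule picked 66 genes, each measured by 1 probe set, out of 5445 yeast genes tested. By general knowledge of the yeast mitochondrial ribosome, 37 of them code for proteins of the large subunit and 28 for proteins of the small subunit. The remaining gene, MRP8, carries a ribosomal name, but its place in the ribosome is uncertain.

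The mitochondrial ribosome is a separate machine from the cytosolic one. It sits in the mitochondrial matrix, is tethered to the inner membrane, and translates the few messages of mitochondrial DNA, nearly all of which code for core subunits of the respiratory chain and ATP synthase. All but one of its proteins are made from nuclear genes, translated in the cytosol and imported, so their transcripts appear among ordinary nuclear messages. In yeast, these transcripts are known to fall and rise with growth and carbon source, and many carry binding sites for Puf3, an RNA-binding protein that directs the decay or translation of messages for mitochondrial proteins.

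Cells of the haploid S288C background (MAT alpha) were measured on 26 arrays in 9 groups, at 32.5 °C and pH 5.5 in synthetic defined medium. Free cells came from batch cultures started with 10 g per litre glucose and held anaerobic with nitrogen, taken at 12 h (log phase, 2 arrays) or 72 h (stationary phase, 2 arrays), and from an anaerobic chemostat fed 1 g per litre glucose, diluted at 0.15 per h and sampled at 72 h (2 arrays). Immobilized cells were held in 3 mm calcium alginate beads in a reactor fed 100 g per litre glucose, and were sampled at days 1, 3 and 5 (4 arrays each) and at days 10 and 17 (3 arrays each). A further group, day 0, has 2 arrays whose titles call the cells pre-immobilized while their source names place them just after immobilization. The labels of day 0 also list 3 mm beads and 100 g per litre glucose. Day 0 thus differs from every free culture in glucose as well, and these differences cannot be told apart in its comparisons with log phase. Whether oxygen was kept out of the bead reactor is not in the labels. RNA was extracted in one way from beads and in another from free cells, so culture form and extraction cannot be told apart in any comparison of beads with free cells.

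Each deposited value is a ratio centred near 1 for every probe set, so levels are given here as log2 ratios relative to a gene's own middle level over the study. The scale has no absolute level: genes cannot be ranked against each other, no transcript can be read as present or absent, and a like change of all messages would not show. A gene was called when its adjusted p was under 0.05 by limma (Benjamini-Hochberg over the 5445 genes) and its fold change was at least 2, which is 1 on the log2 scale. Errors of fold changes are standard errors of that fit. The labels do not say that replicates were separate cultures, so p-values measure the spread between these arrays, which may be technical.

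Most of the family moved together between arrays, and the median member ranged less between groups than the median gene. Over the 26 arrays, 49 of the 66 members had a correlation above 0.5 with the median of the other members, and 5 had one below 0. The range of a member's 9 group means had a median of 1.24 over the 66 members, against 1.64 over all genes tested and 2.65 over 122 cytosolic ribosomal proteins. The median member varied within its groups with an SD of 0.41, against 0.37 for the median gene. Log phase held the highest group mean for 27 members, stationary phase for 19 and day 10 for 16, while day 0 held the lowest for 31. The 2 subunits went together: across the 26 arrays the median of the large-subunit genes and that of the small-subunit genes had a Pearson correlation of 0.96, a description of arrays that share each array's processing. In all, 29 members were called in at least 1 of the 10 comparisons below, and 37 in none. The like count over all genes was not taken, so 29 of 66 cannot be read as few or many.

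**Figure D1:**
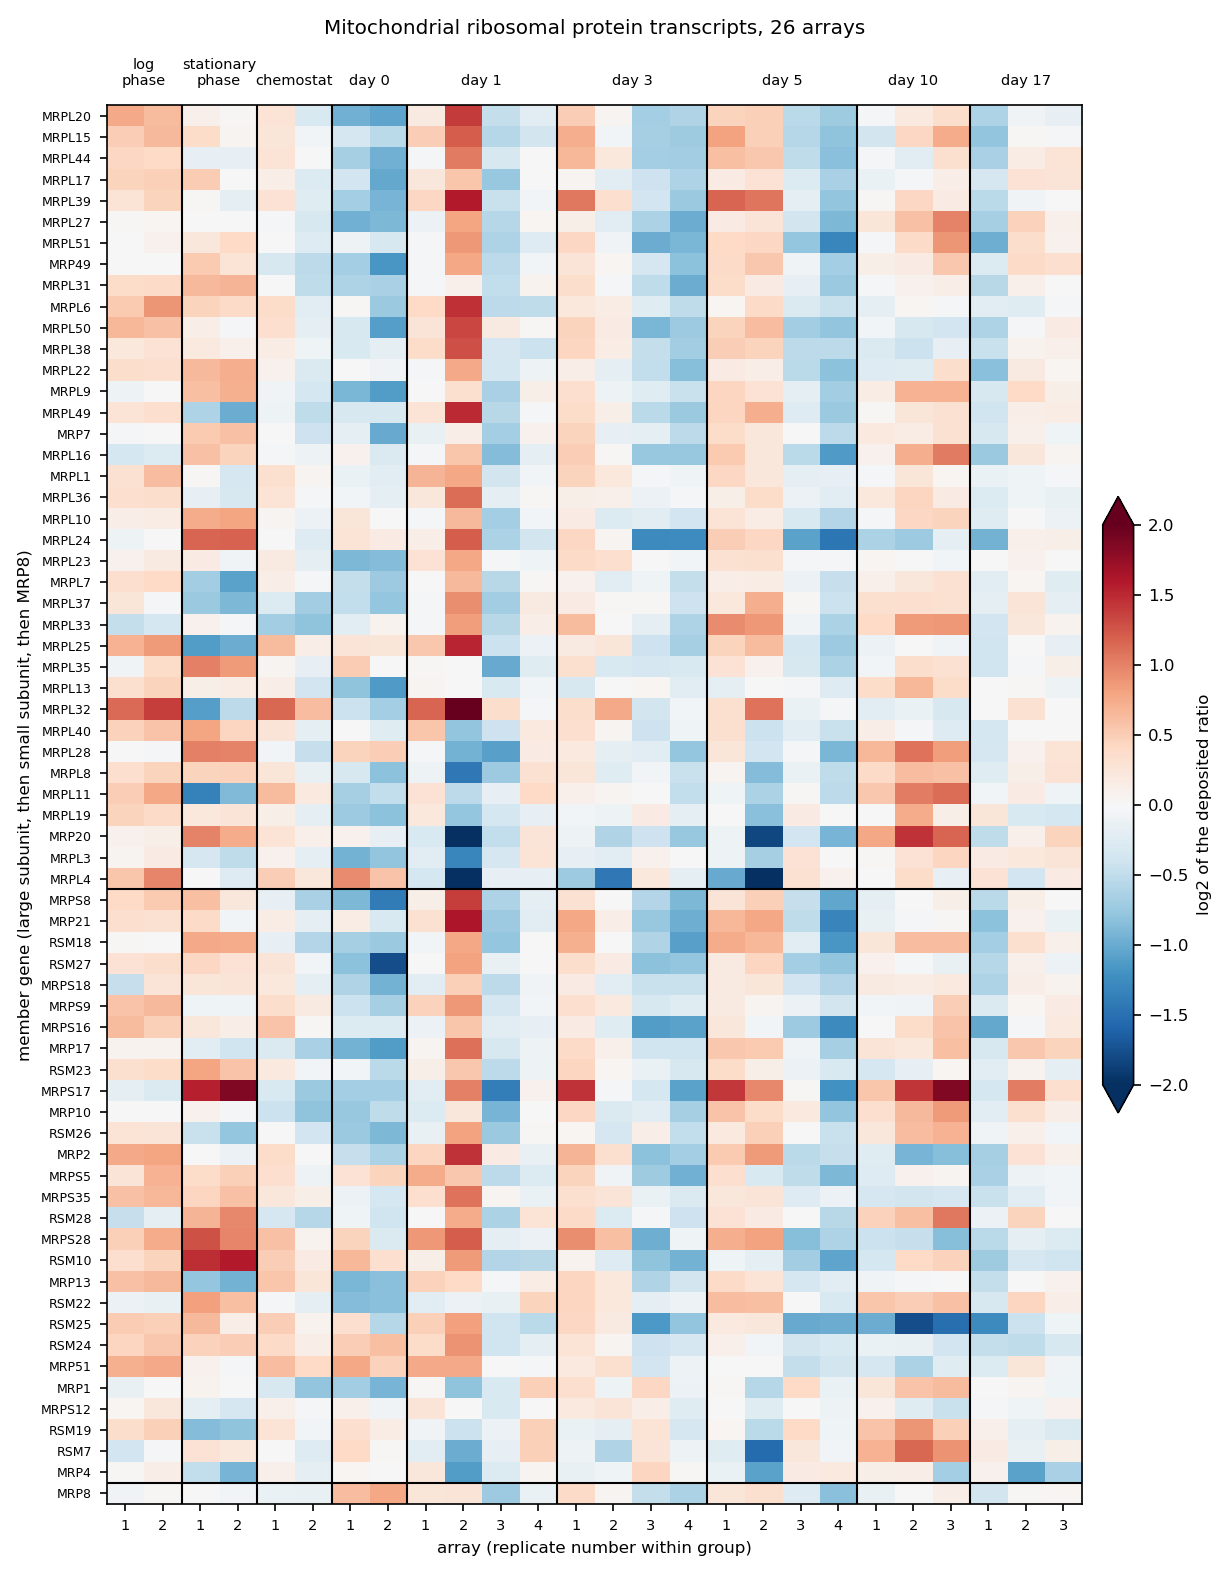
Log2 ratio of each of the 66 member genes (y axis; large subunit, then small subunit, then MRP8, each ordered by correlation with the member median over arrays) on each of the 26 arrays (x axis, by group and replicate). Red is above and blue below a gene's middle level; columns lean to 1 colour at day 0 and on single bead arrays, such as replicate 2 at day 1, while MRPL4, MRP20 and a few others take the opposite colour there.

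The median over the 66 members was 0.29 and 0.36 on the log phase arrays, 0.23 and 0.11 in stationary phase, 0.14 and -0.18 in the chemostat and -0.31 and -0.54 at day 0. In beads it was 0.09, 0.77, -0.46 and -0.04 at day 1, then 0.34, 0.01, -0.37 and -0.50 at day 3, and 0.28, 0.26, -0.22 and -0.61 at day 5, in the order of replicates 1 to 4. It was 0.01, 0.22 and 0.30 at day 10, and -0.35, 0.09 and 0.01 at day 17. The arrays of days 1, 3 and 5 thus spanned the whole range that the 9 groups covered. On replicate 2 of day 1, 43 members stood above 0.5, where 23.7% of all genes did, and on replicate 4 of day 5, 40 members stood below -0.5, where 14.5% of all genes did.

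Members differed most between bead arrays of the same day, and over the bead arrays these shifts went with a measure of RNA quality, though not within day 10. For 8 yeast control genes, the array carries probe sets at the 3' and the 5' end, and their mean difference in log2 ratio rises when the 5' end is less well represented than on other arrays. That difference was -0.19, -0.26, 0.49 and 0.04 at day 1, -0.03, -0.09, 0.24 and 0.23 at day 3, and 0.11, -0.16, 0.23 and 0.42 at day 5. The arrays with the lowest member medians were those with the highest difference on each of days 1 and 5. Day 17 went the same way, with differences of 0.34, 0.17 and 0.22 and member medians of -0.35, 0.09 and 0.01. Day 10 did not: the differences were -0.02, 0.19 and 0.14, and the array with the lowest had the lowest member median (0.01, 0.22 and 0.30). Over the 18 bead arrays the member median and this difference had a Pearson correlation of -0.77 (over all 26 arrays, -0.52). The correlation for the median single member was -0.66 over the bead arrays, against -0.04 for the median of all genes. The 2 stationary phase arrays stood at -0.14 and 0.14, above log phase at -0.25 and -0.47. Group means of the difference were -0.36 in log phase, -0.33 in the chemostat, -0.16 at day 0 and between 0.02 (day 1) and 0.24 (day 17) in beads, so it also differed between the groups compared below. The control transcripts added to each sample, as the mean log2 ratio of their probe sets, differed too, at 2.27 and 2.83 in stationary phase against -0.74 and -0.04 in log phase, and from -2.82 to 1.11 in beads. The part of either in the results was not tested.

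**Figure D2:**
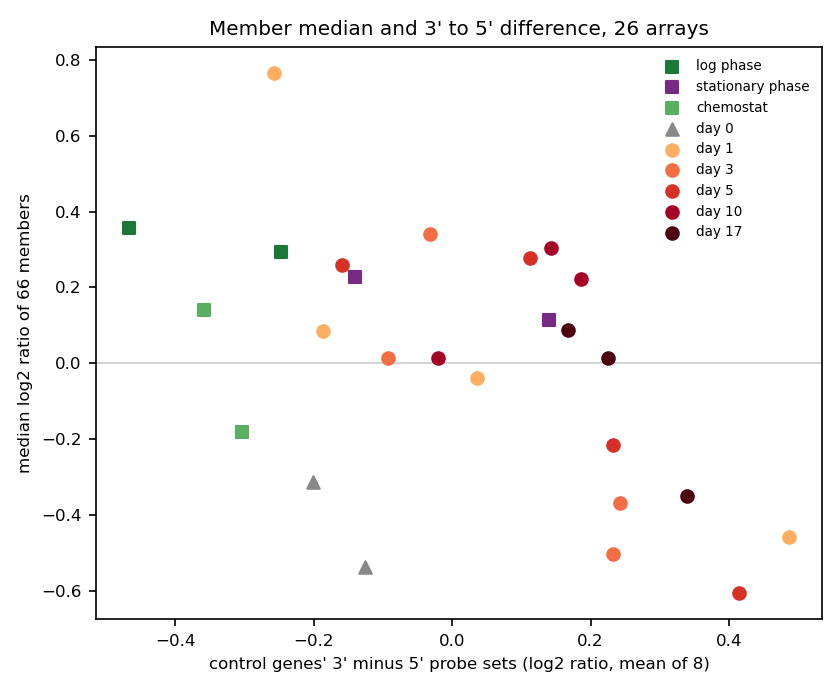
Median log2 ratio of the 66 members (y axis) against the difference between 3' and 5' probe sets, averaged over 8 control genes in log2 ratio (x axis), 1 point an array; squares are free cultures, triangles day 0, circles beads. Bead arrays run from 0.77 at a difference of -0.26 down to -0.61 at 0.42, and the 2 day 0 arrays lie below the other arrays of like difference.

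Some members kept to the family's course over the groups and others did not. Over the 9 group means, 37 members correlated above 0.5 with the profile of the member medians. The closest were MRPL15 (0.96), MRPL20 (0.94), MRPL19 (0.93) and MRPL17 (0.92), all of the large subunit. The farthest were MRP8 (-0.54), MRPS12 (-0.22), MRP4 (-0.17) and MRP51 (-0.06). MRPS12, the counterpart of bacterial S12 at the decoding site, had the smallest range of group means of all members, 0.39, and MRPS17, the counterpart of bacterial S17, the largest, 2.38. Among genes outside the family, the profiles most like that of the member medians over the 9 groups were those of MEP2 (0.96), an ammonium permease, OCA2 (0.95), ZIM17 (0.95), a partner of mitochondrial Hsp70, and SRP14 (0.94), a subunit of the signal recognition particle.

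Stationary phase was set against log phase to compare batch cells whose growth had stopped with growing ones. The family split: 4 members were called higher and 6 lower, where 22.8% of all genes were called higher and 21.7% lower (44.5% in all). As a share of the 66 members the 10 called were 15.2%. The median member changed by -0.09, beside 0.04 for all genes, 39 members lying below 0 and 27 above. Respiratory chain and ATP synthase genes of the nucleus stood otherwise, with 16 of 37 called higher, among them COX7 at 1.97 ± 0.51. Of 122 cytosolic ribosomal protein genes 89 were called lower, with a median of -1.34.

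Among large-subunit genes, MRPL32, the counterpart of bacterial L32 and a substrate of the m-AAA protease on its way into the ribosome, was 1.13 and 1.38 in log phase and -1.10 and -0.53 in stationary phase. The groups lie far apart, and it fell by 2.07 ± 0.54 (adjusted p = 0.00324). MRPL11, the counterpart of L10 at the base of the stalk that recruits translation factors, was 0.50 and 0.77 in log phase and -1.35 and -0.88 in stationary phase. It fell by 1.75 ± 0.31 (adjusted p = 0.000117), and it was the only member called in this comparison under all 33 alternative settings and left-out arrays, with adjusted p from 2.99e-06 to 0.0206. MRPL25, a protein without a bacterial counterpart, went from 0.70 and 0.84 to a mean of -1.05 ± 0.08 (SD, n = 2), and MRPL7, the counterpart of L5, from 0.34 and 0.41 to -0.70 and -1.07. Both fell, by 1.83 ± 0.48 and by 1.26 ± 0.29. MRPL28 rose by 1.02 ± 0.39 (adjusted p = 0.035), just past the fold minimum, from 0.00 and -0.04 to 1.00 on both arrays. MRPL24, the counterpart of L28, differed by 1.22 ± 0.64 and was not called in the main fit (adjusted p = 0.115). Its log phase values of -0.09 and -0.01 lay well below 1.17 on both stationary phase arrays. The main fit takes its error from all 9 groups. The SD of MRPL24 pooled within groups was 0.70, against 0.061 for the log phase arrays and 0.0023 for the stationary phase arrays. With limma fitted to only the groups compared it was called (adjusted p = 0.00263), as it was with array weights (adjusted p = 0.0105).

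Among small-subunit genes, MRPS17 was -0.18 and -0.29 in log phase and 1.55 and 1.85 in stationary phase. It rose by 1.94 ± 0.78 (adjusted p = 0.0413). RSM10, the counterpart of bacterial S10, stood at 0.34 and 0.44 against 1.48 and 1.59, and rose by 1.15 ± 0.42 (adjusted p = 0.0269). RSM28 rose by the same 1.15, with an error of 0.36 (adjusted p = 0.0115). In the opposite direction, MRP13 fell by 1.48 ± 0.30 and RSM19, the counterpart of S19, by 1.26 ± 0.29, with both arrays of each group apart. RSM22, a methyltransferase-like protein needed for the small subunit, was 0.84 ± 0.30 higher with an adjusted p of 0.0249, under the fold minimum. MRPS17, RSM10 and MRPL28 lost the call without any single array of the 4 (adjusted p from 0.0737 to 0.146), and RSM28 lost it without log phase replicate 1 or stationary phase replicate 2 (0.0796 and 0.0786). Without one of those 2 arrays 6 members were called, and 1 member with quantile normalization repeated over the genes.

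**Figure D3:**
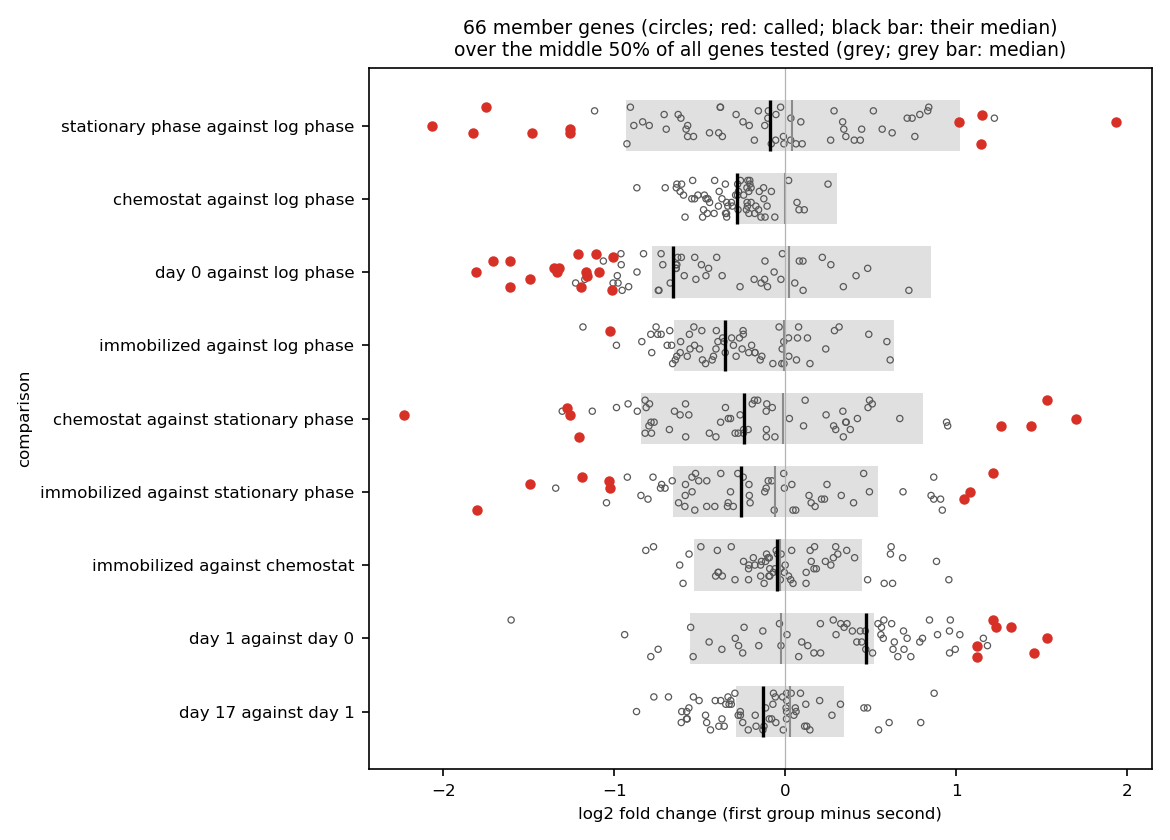
Log2 fold change (x axis, first group minus second) of the 66 members in 9 comparisons (y axis). Red points were called and black bars mark the members' median; the grey band spans the middle 50% of all genes tested and the grey bar their median. Members spread to both sides in stationary phase (6 called lower, 4 higher), and lie to the left at day 0 against log phase (median -0.66, 16 called).

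The other genes of mitochondrial translation were called in both directions in stationary phase, where 44.5% of all genes were (22.8% higher, 21.7% lower). Of 11 translation factor genes, 4 were called higher, led by MEF2, an elongation factor-like recycling protein, at 3.11 ± 0.49, and MTG2, a ribosome assembly GTPase, at 2.34 ± 0.30. Of 14 aminoacyl-tRNA synthetase genes, 12 lay below 0. Called lower were 6, led by MST1 for threonine (-3.04 ± 0.29) and MSW1 for tryptophan (-2.51 ± 0.34). Of 18 activators of single mitochondrial messages, 5 were called higher and 3 called lower, ATP22, for ATP6 mRNA, by 1.65 ± 0.21. PUF3 itself rose by 2.52 ± 0.43 (adjusted p = 8.18e-05), and its difference between beads and stationary phase was -2.68 ± 0.32. Of 11 mitochondrial ribosomal proteins with other names, 1 was called, MNP1, the counterpart of bacterial L7/L12, at -1.16 ± 0.39.

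The chemostat, in which cells grow slowly on limiting glucose, was set against log phase. No member was called in limma's fit, where 2.28% of all genes were. An unadjusted p of 0.05 in that fit was passed by 1 member, beside 611 of all 5445 genes. The values nevertheless leaned one way: 61 of 66 members lay below 0, beside 2732 of 5445 genes, and the median was -0.28, beside 0.00. The arrays of the 2 groups did not overlap for 43 members that were lower (65.2%, against 32.7% of all genes) and for 1 that was higher, MRPL16 (31.3% of all genes). The lowest was MRPS8 at -0.87 ± 0.52 (adjusted p = 0.586), with 0.40 and 0.53 in log phase and -0.16 and -0.65 in the chemostat. Cytosolic ribosomal proteins had a median of -0.10 there, and respiratory genes one of 0.44. Leaving out 1 array at a time moved the members' median between -0.44 and -0.12.

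Against stationary phase, which shares its arrays with the first comparison, the chemostat had 4 members called higher and 4 lower. Of all genes 17.4% were called in each direction (34.8% in all). Those higher were MRPL32 (1.70 ± 0.54), MRPL11 (1.53 ± 0.31), MRPL25 (1.44 ± 0.48) and MRP13 (1.26 ± 0.30). MRPS17 (-2.23 ± 0.78), RSM28 (-1.28 ± 0.36), MRPL28 (-1.26 ± 0.39) and RSM10 (-1.21 ± 0.42) were lower. On the chemostat arrays MRPL32 stood at 1.15 and 0.62, the second below both log phase values of 1.13 and 1.38, and MRPS17 at -0.31 and -0.74. Again MRPL11 alone was called under all 33 alternatives (adjusted p from 1.76e-06 to 0.034), and 1 member was called with quantile normalization. Without stationary phase replicate 1 or chemostat replicate 1, 4 members were called, and without stationary phase replicate 2, 3 were.

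Day 0 was the group in which the family was lowest. Against log phase 16 members were called lower and none higher, where 17.8% of all genes were called lower and 18.6% higher. The 16 are 24.2% of the members. The median was -0.66 (large subunit -0.92, small subunit -0.64), beside 0.02 for all genes, and 56 of 66 members lay below 0. Values of the 2 groups did not overlap for 50 members that were lower (75.8%, against 40.8% of all genes) and for 5 that were higher (41.5% of all genes). Cytosolic ribosomal proteins were lower by far more, with 115 of 122 called and a median of -2.42, whereas no respiratory gene was called lower and 5 were called higher.

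In the large subunit, MRPL32 was -0.43 and -0.68 at day 0 and lower than in log phase by 1.81 ± 0.54 (adjusted p = 0.00965). MRPL20 was -0.97 and -1.06, against 0.76 and 0.63 in log phase, a fall of 1.71 ± 0.49 (adjusted p = 0.00801). MRPL13 had the smallest p of the family: it was 0.32 and 0.44 in log phase, -0.80 and -1.14 at day 0, and fell by 1.35 ± 0.21 (adjusted p = 3.71e-05). MRPL50, MRPL11, MRPL19, MRPL17, MRPL23 and MRPL31 were also called.

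In the small subunit, MRPS8, the counterpart of S8, was -0.90 and -1.40 at day 0 and fell by 1.61 ± 0.52 (adjusted p = 0.015). RSM27, at -0.81 and -1.77, fell by 1.61 ± 0.44 (adjusted p = 0.00549), and MRP13, at -0.91 and -0.84, by 1.49 ± 0.30 (adjusted p = 0.00051). MRP2, MRPS9, MRP17 and RSM26 were also called. The member farthest above log phase was MRP8, at 0.62 and 0.77 against -0.07 and 0.02 (0.72 ± 0.36, adjusted p = 0.11). MRPL4, the counterpart of L29 beside the exit of the peptide tunnel, was 0.94 and 0.57, within 0.56 and 0.98 in log phase. With quantile normalization 1 member was called and the median was -0.54. Without log phase replicate 1, log phase replicate 2 or day 0 replicate 2, the counts were 9, 7 and 6.

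Of the other genes of mitochondrial translation at day 0, MNP1 (-2.02 ± 0.39) and FYV4 (-1.57 ± 0.46), proteins of the large and the small subunit with other names, were lower as well. EHD3, which has been found with the small subunit but resembles a metabolic enzyme, was 1.30 ± 0.33 higher. MEF1, the elongation factor, fell by 1.06 ± 0.38, while PTH1, a peptidyl-tRNA hydrolase, and FMT1, the formyltransferase of the initiator tRNA, rose by 1.98 ± 0.56 and 1.49 ± 0.43.

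After the first day in beads most of these members stood above day 0. Against day 0, which is the same 2 arrays as in the preceding comparison, 7 members were called higher and none lower, where 9.97% of all genes were called higher and 10.3% lower. As a share of the family the 7 are 10.6%, and the median was 0.47, beside -0.03 for all genes. They were MRPL32 (1.53 ± 0.47), RSM27 (1.46 ± 0.38), MRPS8 (1.32 ± 0.45), MRPL20 (1.23 ± 0.43), MRP17 (1.21 ± 0.36), MRP13 (1.12 ± 0.26) and MRPL23 (1.12 ± 0.22). MRPL23, the counterpart of L13, had the smallest adjusted p, 0.000561, with -0.90 and -0.86 at day 0 and 0.29, 0.78, -0.02 and -0.08 at day 1. Cytosolic ribosomal proteins were called higher in 103 of 122 genes, with 121 above 0. Respiratory genes were called lower in 6 of 37 and higher in 1, with 36 below 0.

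Replicate 2 of day 1 weighed on this comparison. MRPL32 was 1.16, 2.43, 0.35 and -0.03 at day 1, MRPS8 0.12, 1.38, -0.61 and -0.18, and RSM27 -0.01, 0.81, -0.16 and 0.00. The second value was the highest each time. Without that array 3 members were called and the median was 0.25; without replicate 3, 12 were called and it was 0.64, and without replicate 4, 11 were. Without day 0 replicate 1 or 2, 4 and 2 members were called. None was called with quantile normalization or when only these groups were fitted.

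The same array held the lowest values of other members. MRPL4 was -0.35, -2.72, -0.16 and -0.16 at day 1, and MRP20, the counterpart of L23 at the tunnel exit, -0.30, -2.58, -0.50 and 0.26. MRPL8 stood at -1.43 there, MRPL3 at -1.30, MRP4, the counterpart of S2, at -1.12, and RSM7, the counterpart of S7, at -0.99. In all, 11 members were below -0.5 on this array, where 27.5% of all genes were, and 43 were above 0.5, where 23.7% were. On replicate 2 of day 5 MRPL4 was at -2.44, MRP20 at -1.82 and RSM7 at -1.54. There 10 members were below -0.5, where 16.6% of all genes were, and 16 above 0.5, where 16% were. On neither array were the low members a larger share of the family than the low genes were of all genes. Over the 26 arrays MRPL4 and MRP4 had correlations of -0.47 and -0.49 with the member median, and 5 members had one below 0.

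**Figure D4:**
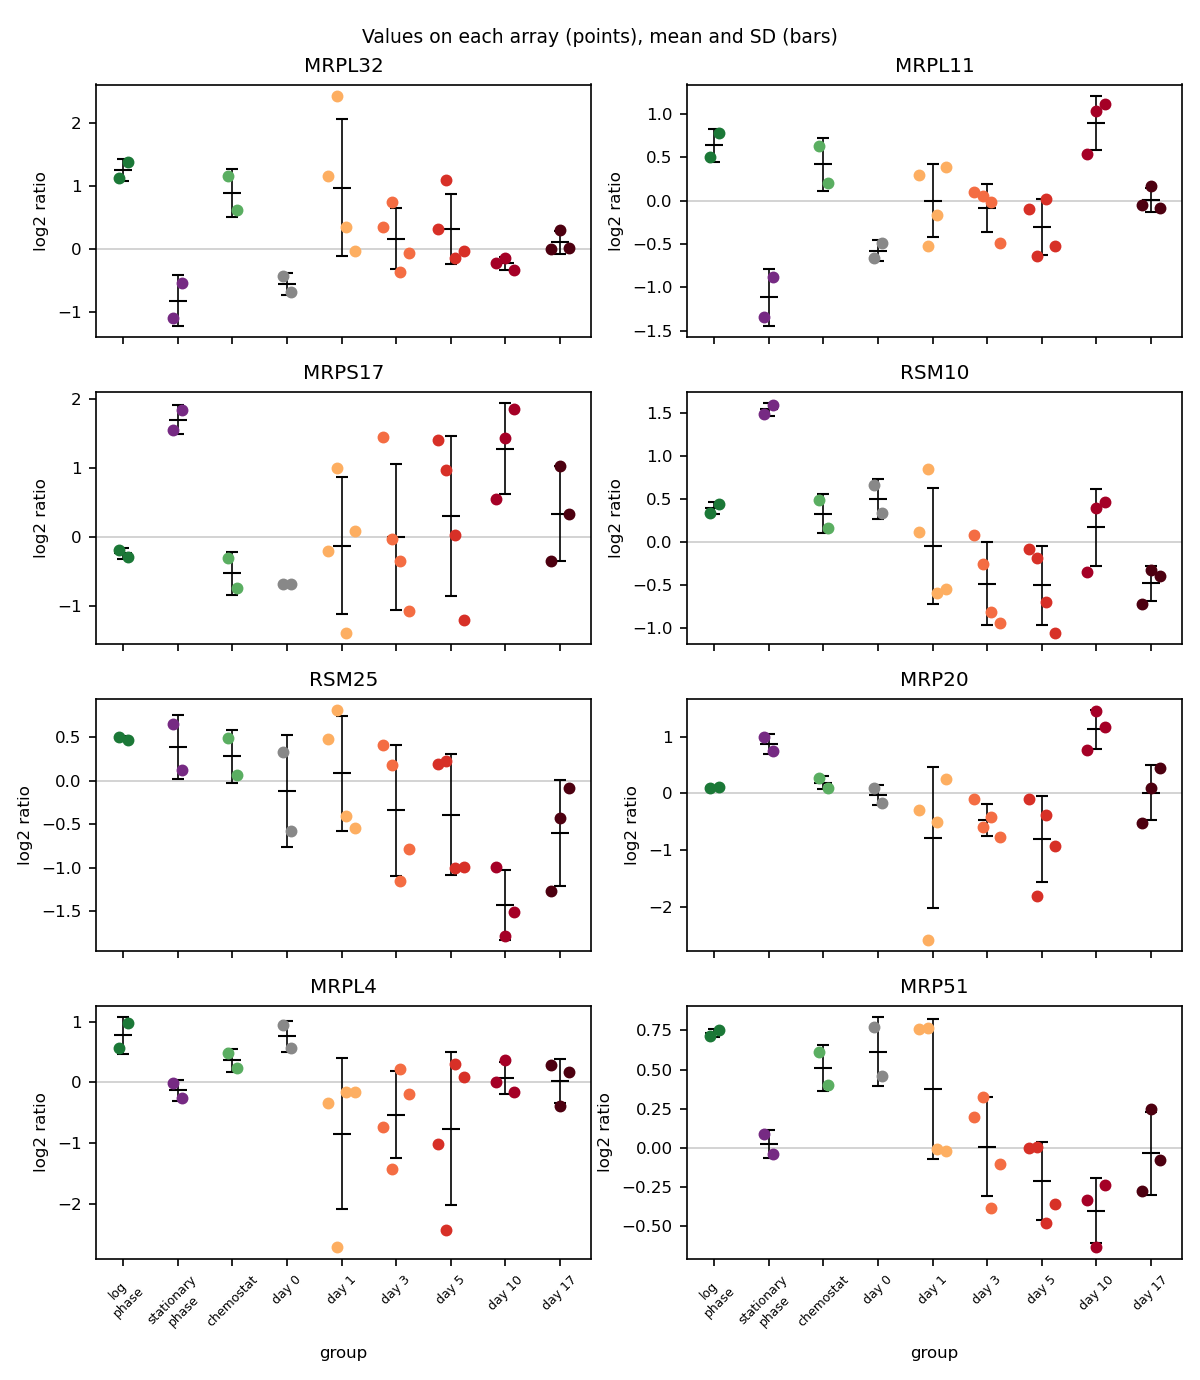
Log2 ratio (y axis) of 8 members on every array (points) in the 9 groups (x axis), with the mean and SD of each group. MRPL32 and MRPL11 are high in log phase and low in stationary phase, MRPS17 and RSM10 the reverse; RSM25 is lowest at day 10, and MRPL4 and MRP20 reach -2.72 and -2.58 on 1 array of day 1.

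Over all bead days together, taken as the mean of the 5 day means, few members stood apart from free cells. Against log phase 1 member was called, RSM25, lower, where 14.7% of all genes were called lower and 15.9% higher. The median was -0.35, beside -0.01 for all genes, and 53 of 66 members lay below 0. RSM25, a small-subunit protein without a bacterial counterpart, was 0.51 and 0.47 in log phase and fell by 1.02 ± 0.42 (adjusted p = 0.0485). In beads it ranged from -0.54 to 0.81 at day 1, -1.16 to 0.41 at day 3 and -1.27 to -0.08 at day 17, and it was -0.99, -1.78 and -1.51 at day 10. Day 1 overlapped log phase, and every array of the later days lay below both log phase values. This call was lost under 21 of 35 alternatives, among them the mean without day 10 (-0.80, adjusted p = 0.131). With the replicate block RSM25 was not called (-0.71, adjusted p = 0.114) and MRPL4 was, lower (-1.61, adjusted p = 0.00674). Deviations from group means of same-numbered log phase and bead arrays correlated between -0.32 and 0.13. The numbers were thus not seen to pair these arrays.

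Under the adjusted p alone, 6 members were lower than in log phase, where 24.8% of all genes were. MRP51, which works together with the leaders of mitochondrial messages, was 0.71 and 0.75 in log phase and differed by -0.79 ± 0.22 (adjusted p = 0.00602). It was 0.76, 0.76, -0.01 and -0.02 at day 1, so that 2 of these arrays lay above both log phase values, and -0.33, -0.64 and -0.24 at day 10. MRPL32 differed by -0.99 ± 0.40 (adjusted p = 0.0464). Among other members, MRPL3 (-0.14 ± 0.25), MRP7, the counterpart of L27 (-0.02 ± 0.25), MRPL36, the counterpart of L31 (-0.25 ± 0.22), MRP1 (0.14 ± 0.25) and MRP10 (0.07 ± 0.30) were not called. In the same comparison 82 of 122 cytosolic ribosomal protein genes were called lower and all 122 lay below 0, with a median of -1.27. Of 37 respiratory genes 2 were called higher, with 17 above 0 and 20 below.

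Against stationary phase 3 members were called higher in beads and 5 lower, where 11.8% of all genes were called higher and 14.4% lower (26.3% in all). RSM10 was lower by 1.80 ± 0.31 (adjusted p = 0.000108), with 1.48 and 1.59 in stationary phase and no bead value above 0.84; it was called under all 35 alternatives. MRPL24 (-1.49 ± 0.48), MRPS28, the counterpart of S15 (-1.19 ± 0.43), MRPL28 (-1.03) and MRPL35 (-1.03 ± 0.26) were lower too. MRPL11 (1.21 ± 0.23, adjusted p = 0.000256), MRPL32 (1.08 ± 0.40) and MRPL25 (1.05 ± 0.36) were higher. Of 37 respiratory genes 17 were called lower and 1 higher, and 35 lay below 0. Without stationary phase replicate 1 or 2 the count was 2 and 3, and with quantile normalization 1. With the replicate block MRPL37 (1.10, adjusted p = 0.003) and MRP20 (-1.23, adjusted p = 0.0347) were called as well, and MRPS28 was not (-0.77, adjusted p = 0.0518). Deviations of same-numbered stationary phase and bead arrays correlated between -0.14 and 0.08, so the numbers were not seen to pair these either.

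Against the chemostat no member was called, where 19.5% of all genes were. In limma's fit 5 members passed an unadjusted p of 0.05, beside 2398 of all 5445 genes. With the replicate block MRPL33 (1.19, adjusted p = 0.00635) and MRPL4 (-1.20, adjusted p = 0.0465) were called. Deviations from group means of same-numbered chemostat and bead arrays correlated between -0.07 and 0.10. The numbers were thus not seen to pair these arrays. The members' median in the unblocked fit was -0.05, beside -0.03 for all genes. MRPL33, the counterpart of L30, came closest: it was -0.70 and -0.81 in the chemostat, every bead array lay above both values, and the difference was 0.96 ± 0.34 (adjusted p = 0.0351), just under the fold minimum. MRPS17 (0.88 ± 0.58), MRP10 (0.69 ± 0.30) and MRP1 (0.63 ± 0.25) differed with adjusted p of 0.256, 0.0768 and 0.0551. Cytosolic ribosomal proteins were called lower than in the chemostat in 69 of 122 genes, and all 122 lay below 0.

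Within the beads, 4 members differed among the days: MRP20, MRPL28, RSM7 and MRPL11, where 20.9% of all genes were called. The median range of the day means was 0.57 over the members and 0.73 over all genes, and 74 of 122 cytosolic ribosomal proteins were called. All 4 members were highest at day 10. MRP20 was 0.77, 1.44 and 1.17 there, against -0.10, -1.82, -0.38 and -0.93 at day 5 and -0.51, 0.10 and 0.45 at day 17. The day 10 values lay above all others in beads. MRPL11 was 0.53, 1.03 and 1.11 at day 10, with no other bead array above 0.39, and RSM7 was 0.70, 1.15 and 0.89, with none above 0.48.

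The adjusted p over the 5 days was 0.00936 for MRPL11, 0.018 for MRPL28, 0.0189 for MRP20 and 0.0404 for RSM7, and the ranges of their day means were 1.20, 1.34, 1.93 and 1.31. The step from day 5 to day 10 was called for the same 4 genes, at 1.93 ± 0.47 for MRP20, 1.31 ± 0.34 for RSM7, 1.20 ± 0.24 for MRPL11 and 1.14 ± 0.30 for MRPL28, where 3.29% of all genes were called higher. From day 10 to day 17 these differed by -1.11 ± 0.50, -0.87 ± 0.36, -0.88 ± 0.25 and -0.86 ± 0.32, and none was called, where 5.07% of all genes were. RSM25 had a range of 1.51, with its lowest mean at day 10, and was not called (adjusted p = 0.0916). Without day 10 replicate 2 or replicate 3, none of the 4 was called over the 5 days. The count was 18 with array weights, 2 with quantile normalization and 1 with only the groups compared, and RSM7 lost the call under 14 of 33 alternatives. The fit with the replicate block called 8 members, among them RSM25 (range 1.70, adjusted p = 0.0192) and MRPS28 (1.18, adjusted p = 0.0417). That block sets 1 effect per replicate number on all groups, but the numbers were seen to pair the arrays of days 3 and 5 only. Deviations of same-numbered arrays correlated at -0.26, -0.47 and -0.07 between days 3 and 10, and at -0.36, 0.50 and -0.32 between days 5 and 17. The blocked calls among the days are therefore a description of that setting. RSM25 was also called with array weights (1.96, adjusted p = 0.000468) and without day 1 replicate 4 (1.72, adjusted p = 0.046).

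Day 10 alone was also the bead day with the most members called against log phase, 3 higher and 4 lower. There 21.2% of all genes were called higher and 21.5% lower (42.7% in all). MRPL33 (1.12 ± 0.42), RSM7 (1.11 ± 0.40) and RSM28 (1.03 ± 0.33) were higher. RSM25 (-1.92 ± 0.51), MRPL32 (-1.48 ± 0.49), MRP2, the counterpart of S14 (-1.45 ± 0.48), and MRP51 (-1.13 ± 0.27) were lower. At days 3 and 5, 1 member was called against log phase, MRPS16, the counterpart of S16, at -1.13 ± 0.41 and -1.01 ± 0.41, where 27% and 29.7% of all genes were. At days 1 and 17 none was, where 14.3% and 30.1% of all genes were.

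Ageing in the beads was asked of day 17 against day 1. No member was called, where 0.294% of all genes were. In limma's fit 4 members passed an unadjusted p of 0.05, beside 1099 of all 5445 genes. The median was -0.13, beside 0.03 for all genes, and it moved between -0.31 and 0.03 as single arrays were left out. MRPL4 had the largest positive difference (0.87 ± 0.58, adjusted p = 0.406) and MRPL32 the most negative (-0.87 ± 0.41, adjusted p = 0.24). MRPL32 was near 0, 0.31 and 0.01 at day 17, inside its range at day 1. From day 3 to day 5, with the replicate number as a block on their 8 arrays, no member was called and no gene was; 480 genes and 0 members passed an unadjusted p of 0.05, and the members' median was 0.07.

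**Figure D5:**
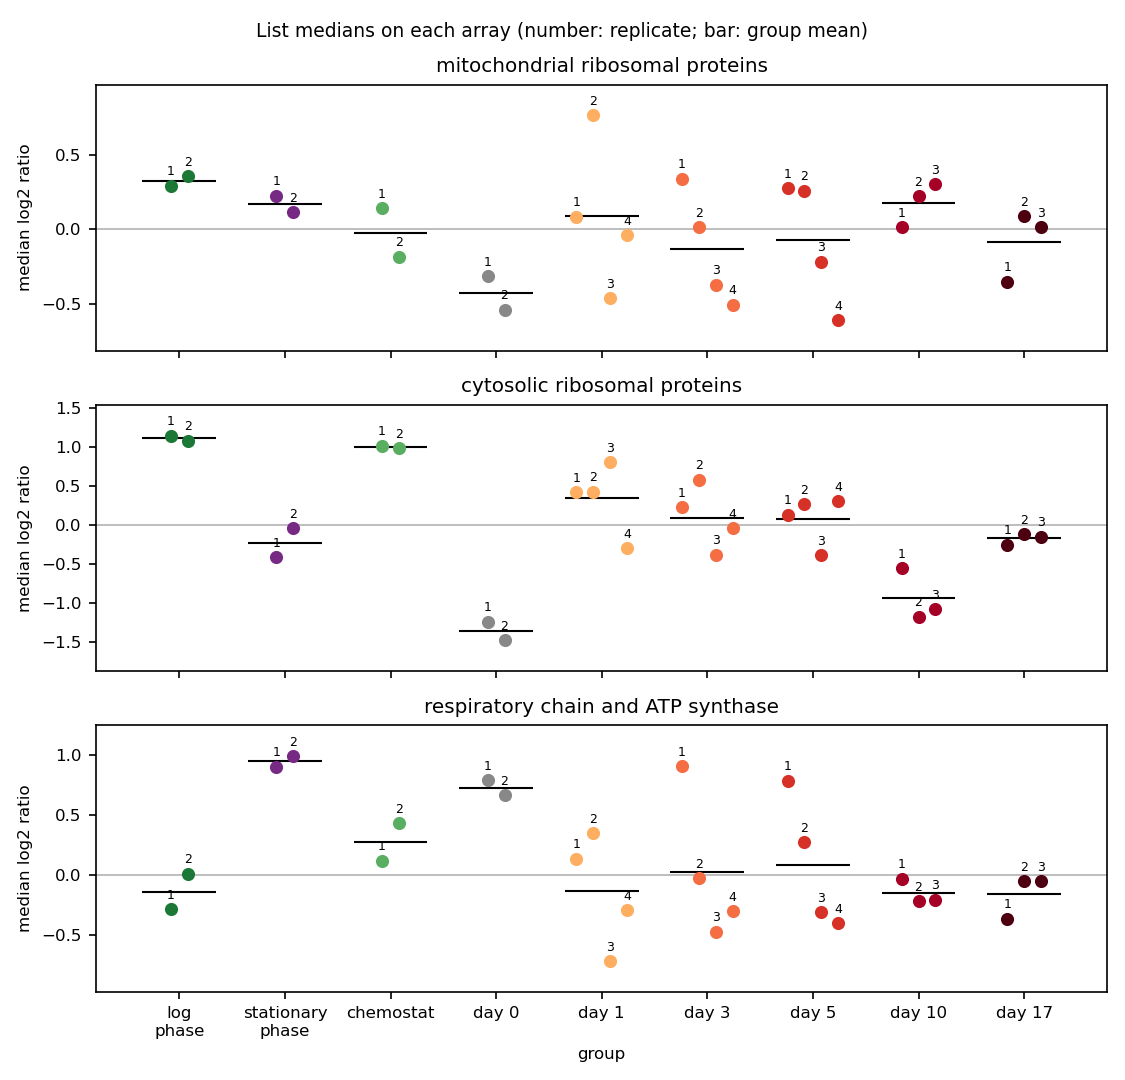
Median log2 ratio (y axis) on each array (points, numbered by replicate) in the 9 groups (x axis) for the 66 mitochondrial ribosomal proteins, 122 cytosolic ribosomal proteins and 37 respiratory chain and ATP synthase genes; bars are group means. The mitochondrial family spans 0.77 to -0.46 within day 1, while the cytosolic family separates log phase and chemostat (0.98 to 1.14) from day 0 (-1.24 and -1.48).

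The 37 members called in none of the 10 comparisons still varied, and some of them, MRPL4, MRPL33 and MRPL37 included, were called when the replicate block was fitted. Those of the large subunit were MRP7, MRP49, MRPL1, MRPL3, MRPL4, MRPL6, MRPL8, MRPL9, MRPL10, MRPL15, MRPL16, MRPL22, MRPL27, MRPL33, MRPL36, MRPL37, MRPL38, MRPL39, MRPL40, MRPL44, MRPL49 and MRPL51. Those of the small subunit were MRP1, MRP4, MRP10, MRP21, MRP51, MRPS5, MRPS12, MRPS16, MRPS18, MRPS35, RSM18, RSM22, RSM23 and RSM24, and MRP8 completes the list. The ranges of their group means ran from 0.39 in MRPS12 to 1.67 in MRPL9.

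Among these, MRPL36 stayed between -0.24 ± 0.10 (SD, n = 2) in stationary phase and 0.34 ± 0.01 in log phase, with an SD of 0.57 over the 4 arrays of day 1. MRP7 was highest in stationary phase, at 0.56 ± 0.04 (SD, n = 2), and lowest at day 0, at -0.60 ± 0.57. MRPS5, the counterpart of S5, went from 0.47 ± 0.31 (SD, n = 2) in log phase to -0.34 ± 0.52 (SD, n = 4) at day 5, which overlap within their spread. MRP1 and MRP10, both without a bacterial counterpart, were highest at day 10, at 0.48 ± 0.20 and 0.62 ± 0.26 (SD, n = 3). Both were lowest at day 0, at -0.81 ± 0.16 and -0.63 ± 0.17 (SD, n = 2). RSM22 ran from -0.85 ± 0.02 at day 0 to 0.71 ± 0.15 in stationary phase (SD, n = 2 each). MRPL44 missed the call at day 0 by the adjusted p alone (-1.23 ± 0.50 against log phase, adjusted p = 0.05 after rounding).

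Set beside other lists on the same arrays, the member median went with that of the 11 mitochondrial ribosomal proteins of other names (Pearson correlation 0.77 over 26 arrays), and less with respiratory genes (0.35) and cytosolic ribosomal proteins (0.24). Over the 18 bead arrays the correlation with respiratory genes was 0.73. The points share array processing and RNA quality, and these values are descriptions. At day 0 the member median lay below that of respiratory genes by the widest margin, at -0.31 and -0.54 against 0.79 and 0.66. In stationary phase the members stood at 0.23 and 0.11 and the respiratory genes at 0.90 and 0.99.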

How the data were processed

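RNA of 26 yeast samples was hybridised to 26 Affymetrix arrays that hold 10928 probe sets. The authors processed the arrays with RMA, per the submitters' processing notes; the version and any later step are not given in the sources used here. All deposited values are linear ratios, with a median of 0.990 to 1.05 for every probe set and of 0.998 to 1.00 for every array, so they were taken as relative to each probe set's own middle level. Their log2 was analysed with no further scaling, pseudocount or filter on low values, since no absolute level is left. Genes were named through the platform annotation: 5498 probe sets had 1 budding yeast gene, 1746 belonged to another organism or had no yeast gene, 1 had several symbols and 3683 were not listed. For 47 genes with several probe sets 1 was kept, 4 genes with missing values were left out, and 5445 genes were tested. Probe sets of fission yeast genes of the same names (46) had array medians near 0.

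Group means were fitted to all 26 arrays with limma 3.58.1 in R 4.3.3 (17 residual degrees of freedom, 21.0 with the prior), with contrasts between groups and Benjamini-Hochberg adjustment. The immobilized mean weights the 5 days equally. The fit was also run on simulated data with independent noise, of equal spread in all groups. Such data cannot test shifts shared by the genes of an array or spreads that differ between groups. The number of arrays limits the precision. Alternatives were quantile normalization, a common median shift, array weights, a prior both trended and robust, calls with no fold minimum, the replicate number as a block, only the groups compared, days 3 to 17, the mean of a gene's probe sets, the list without MRP8, and each array left out. The mean without day 10, the crossed block and the blocked fit of days 3 and 5 were added after the data were seen. Deviations from group means of same-numbered arrays correlated at 0.86, 0.55, 0.85 and 0.79 between days 3 and 5, so these numbers pair the arrays of these 2 days; no other 2 groups with 3 or more shared numbers had every correlation above 0.1.

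Genes named are the 5 highest and 5 lowest members of a comparison, 13 members fixed by name, the 4 closest to and 4 farthest from the member median profile, the 4 most similar other genes and at most 4 of each list; MRPL23, MRPL7, MRPL13 and others beside a count were chosen after their values were seen. The members and lists were chosen with earlier results of these data known. Genes of mitochondrial DNA were not analysed here.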

Additional observations from a re-analysis of the deposited data

Results flagged for a closer look

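In the 4-array groups of days 1, 3 and 5, 4 of 129 sets of values had 1 array far from the other 3 by Dixon's criterion, 3.1%, where chance gives about 1 in 20. The screen took 43 series of values, not all members, and the sets share arrays, so they are not independent. MRPL4 was -2.72 on replicate 2 of day 1, with the others between -0.35 and -0.16. RSM27 was 0.81 on the same array, with the others between -0.16 and 0.00. RSM22 was 0.45 on replicate 4 of day 1, against -0.22 to -0.12. MRPL35 was 0.32 on replicate 1 of day 3, against -0.33 to -0.30.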

How the results depend on the processing

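With quantile normalization, which makes the spread over genes equal on all arrays (interquartile ranges of 0.41 to 1.20 as deposited), the members called were 1 for stationary against log phase, 1 for day 0 against log phase, 0 for beads against log phase, 1 for the chemostat against stationary phase, 1 for beads against stationary phase, 0 for day 1 against day 0 and 2 among the days; all genes called fell from 44.5% to 11.4% in the first of these. Without a fold minimum, 6 members were called for beads against log phase (9.09%, against 49.7% of all genes). The chemostat against stationary phase gave 13 (19.7%, against 43.7%) and beads against stationary phase 19 (28.8%, against 43.9%). Beads against the chemostat gave 1 (1.52%, against 33.9%) and day 1 against day 0 gave 13 (19.7%, against 29.8%). For beads against log phase 0 were called with a trended and robust prior, with only the groups compared or without day 10, and 2 over days 3 to 17, where beads against stationary phase gave 5. Only the groups compared gave 0 for day 1 against day 0 and 1 among the days. Array weights gave 1 for day 17 against day 1 and 18 among the days.

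With the replicate block, 2 members were called for beads against the chemostat, 15 for day 1 against day 0 and 8 among the days, and the other counts stayed within 1.5 times, though not always over the same genes. Among the named members, the block gained MRPL4 (-1.61) and lost RSM25 (-0.71) for beads against log phase, gained MRP20 and MRPL37 and lost MRPS28 for beads against stationary phase, and gained MRPL24 (-1.30) for the chemostat against stationary phase, MRPL4 (-2.12) for day 1 against day 0, and RSM25 and MRPS28 among the days. The deviations of log phase and day 0 correlated at -0.18; crossing the day 0 numbers in the block called 19 members, as did the uncrossed block. Leaving out 1 array at a time gave 6 to 11 for stationary against log phase, 0 to 0 for the chemostat against log phase, 6 to 18 for day 0 against log phase, 0 to 2 for beads against log phase, 3 to 8 for the chemostat against stationary phase, 2 to 9 for beads against stationary phase, 0 to 1 for beads against the chemostat, 2 to 12 for day 1 against day 0, 0 to 1 for day 17 against day 1 and 0 to 7 among the days. Over 207 single-gene results of members named by rule and 6973 alternatives, 148 lost the call, 40 gained it and none turned direction while called. Most of the 207 results were not called in the main fit and could not lose a call, so 148 cannot be read as a share of 6973. The cause was not tested where a count moved. Groups of 2 to 4 arrays limit the precision.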
